A study of Mus musculus with 13 samples.

Results

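The 10 mouse microRNAs (miRNAs) described here were followed across normal thymocytes and T-cell acute lymphoblastic leukaemia (T-ALL): mmu-miR-32-3p, mmu-miR-468-3p, mmu-miR-672-5p, mmu-miR-206-3p, mmu-miR-294-3p, mmu-miR-207, mmu-miR-1927, mmu-miR-504-3p, mmu-miR-5620-5p and mmu-miR-3070b-3p. They are 10 of the 1122 mouse miRNAs on the array, and all 10 were found by name. They were selected on measured values of these same arrays, as miRNAs high in CD4+CD8+ (double positive, DP) thymocytes and low in CD4-CD8- (double negative, DN) thymocytes and in primary T-ALL. The families miR-297, miR-466, miR-467 and miR-669, together 61 array names, were left out of the choice. The contrast between DP cells and the other primary cells is therefore given as a description, with no test. No numerical threshold came with the choice.

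The study used 1-colour Agilent miRNA arrays (Cy3) on 13 samples of C57BL/6 origin. DN and DP cells were sorted from normal thymus. Primary T-ALL was taken at an early stage (ES) and a late stage (LS), as CD4+CD8+ cells sorted from the spleens of bone marrow chimeras transformed with N1ICD, the intracellular domain of Notch1 that signals without ligand. Each of these 4 groups has 3 arrays, described in the series as biological replicates, and the mouse T-ALL cell line M295 was hybridised once. The primary T-ALL model is thus driven by N1ICD, M295 is 1 line, and tissue (spleen or thymus) and disease cannot be told apart. The RNA came from whole sorted populations, in which fewer cells of a type and less RNA per cell cannot be told apart either.

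Values are background-subtracted fluorescence intensities, divided by the 75th percentile of the array over the 108 miRNAs above background on all 12 primary arrays, and put on the log2 scale ("scaled signal"). A common floor lies at -7.59, and values at the floor have no order. The thymocyte labels were checked with miR-181a-5p, a miRNA of DP thymocytes, whose scaled signal was 1.88 ± 0.08 in DP against -0.83 ± 0.15 in DN cells (SD, n = 3), and -1.32 ± 1.33, -0.64 ± 0.54 and -2.57 in ES, LS and M295. ES 1 stood apart, with an SD of 19.0 intensity units over its negative control spots against 5.21 to 7.11 on the other arrays, and with 115 miRNAs above background against 157 to 257. Markers of other blood cells differed between the groups. The summed erythroid signal (miR-451 and miR-144-3p) lay between -5.91 and -5.19 in DP, -0.41 and 0.02 in DN, -5.57 and -1.36 in ES and -3.47 and 0.68 in LS, and was -6.27 on M295. The myeloid miR-223-3p reached 2.85 on ES 3 and stayed at or below -4.89 on the other arrays. The summed signal of the mature lymphocyte markers (miR-150-5p, miR-146a-5p and miR-155-5p) lay between -1.88 and -1.75 in DP, above the DN range of -2.60 to -2.35, and between -5.95 and -0.53 in ES and -5.33 and -2.77 in LS, and was -3.16 on M295. The part of these cells in the results below was not tested.

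A miRNA hairpin is cut by Drosha and Dicer into a duplex, and usually 1 of its arms, named 5p or 3p, is kept by an Argonaute protein to guide repression of messenger RNAs through its seed, bases 2 to 8. Passage from the DN to the DP stage follows pre-T-cell receptor and Notch1 signalling, and Notch1 activity falls as thymocytes become DP. The 5p arm of miR-32 shares its seed with miR-92a and miR-25, and its 3p arm is the less studied one. miR-206 is a skeletal muscle miRNA encoded beside miR-133b, and miR-294 belongs to the miR-290 to miR-295 cluster of embryonic stem cells. The 5p arm of miR-504 is known as a repressor of p53, and the miR-3070 hairpins lie in the imprinted Dlk1-Dio3 region.

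RefSeq (GRCm38.p6) gave a mature sequence for 7 of the 10. They are shown because the names share no family, and the seed, in capitals, is what would define one. The RefSeq 3p arm of the Mir3070b hairpin is named miR-3070-2-3p.
miR-32-3p: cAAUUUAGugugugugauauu
miR-672-5p: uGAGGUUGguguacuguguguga
miR-206-3p: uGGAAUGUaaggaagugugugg
miR-294-3p: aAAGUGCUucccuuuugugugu
miR-207: gCUUCUCCuggcucuccucccuc
miR-5620-5p: aCGAGGCAggggcuuugacugug
miR-3070b-3p: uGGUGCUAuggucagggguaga
The 7 seeds all differed. The 10 hairpins lie apart, on chromosomes 1, 4, 6, 7, 12 and X.

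In GRCm38.p6 coordinates Mir32 (chr4:56895229-56895298, minus strand) lies within the bounds of Tmem245, Mir672 (chrX:104116175-104116274, minus) within Nexmif, Mir207 (chr4:40722917-40722995, plus) within Dnaja1, Mir1927 (chr1:160295864-160295972, minus) within Rabgap1l and Mir504 (chrX:59097658-59097736, minus) within Fgf13. Mir5620 (chr7:7298891-7298946, plus) lies within Clcn4, Mir3070b (chr12:109588592-109588680, plus) within Rtl1, Mir206 (chr1:20679010-20679082, plus) within the long non-coding Lincmd1, and Mir294 (chr7:3220641-3220724, plus) within Nlrp12 and the long non-coding D7Ertd143e. No protein-coding or long non-coding gene of the table spans Mir468 (chr6:81896599-81896676, minus). The gene table gives neither strand nor exons, so exonic and intronic positions were not determined. All but 1 of the hairpins thus lie inside another gene, and no gene spans more than 1 of them.

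miR-32-3p was far above background in DP cells and M295. Its background-subtracted intensity was 208, 279 and 304 units on DP 1 to 3, and 793 on M295. It was at most 23.0 on the DN arrays, and 10.6, 1.81 and 24.1 in ES and 15.0, 21.8 and 66.4 in LS. All DP arrays were thus above every other primary array, and LS 3 was the only one of the other 9 primary arrays above background. The mean scaled signal was -2.87 ± 0.36 in DP, -6.28 ± 0.21 in DN, -7.06 ± 0.56 in ES and -6.03 ± 1.25 in LS (SD, n = 3). Where no array of the lower group is above background a fold is a lower bound, taken against the lowest signal measurable on those arrays or the miRNA's own, whichever is higher. On that footing DP was at least 10.6-fold above DN, at least 14.7-fold above ES and 8.90-fold above LS. Without LS 3 no LS array was above background, and the excess over LS was at least 14.5-fold. Without LS 1 the excess over LS was 6.40-fold.

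miR-468-3p, a mouse miRNA with little known function, followed the same course. Its intensity was 187, 261 and 261 on the DP arrays, 25.8, 17.1 and 16.7 in DN, 4.85, 5.86 and 32.0 in ES, 18.3, 26.1 and 61.8 in LS and 759 on M295. It was the member detected most often elsewhere, above background on DN 1, ES 3, LS 2 and LS 3. Its mean scaled signal in DP was -3.03 ± 0.31 (SD, n = 3), 9.22-fold above DN, 16.6-fold above ES and 7.20-fold above LS. ES 1 and ES 2 were at the floor, so the fold over ES depends on where the floor lies.

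miR-672-5p is encoded on the X chromosome. Its intensity was 119, 173 and 190 in DP and 421 on M295, and on the other primary arrays it stayed between -7.26 and 33.0. LS 3 was again the only one of those 9 above background. Its mean scaled signal in DP was -3.60 ± 0.41 (SD, n = 3), at least 13.2-fold above DN, at least 9.99-fold above ES and 10.1-fold above LS. The fold over LS depends on the floor too, since LS 3 was the only LS array above background and LS 1 and LS 2 were at the floor.

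miR-294-3p and miR-206-3p were above background in DP and M295 only. For miR-294-3p, of the embryonic stem cell cluster, intensities were 51.7, 72.2 and 72.9 in DP, 151 on M295, and at most 16.0 (LS 3) on the other primary arrays. The DP mean of -4.88 ± 0.32 (SD, n = 3) was at least 5.60-fold above DN, at least 4.64-fold above ES and at least 5.03-fold above LS. For miR-206-3p, the muscle miRNA, intensities were 37.8, 51.6 and 53.7 in DP and 115 on M295, and all 9 DN, ES and LS arrays were at the floor. Its DP mean of -5.34 ± 0.33 (SD, n = 3) gave folds of at least 4.23, 3.44 and 4.54 over DN, ES and LS.

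The other 5 lay close to background even in DP, with intensities between 24.8 and 41.7 units on the DP arrays. miR-5620-5p had intensities of 30.0, 40.9 and 38.5 in DP and 51.8 on M295, and was at the floor on all 9 other arrays (folds of at least 3.24, 2.64 and 3.48 over DN, ES and LS). miR-207 had intensities of 24.8, 32.4 and 32.9 in DP, 63.5 on M295 and at most 17.7 (LS 3) elsewhere (folds of at least 2.34, 2.17 and 2.01). Both kept every DP array above every other primary array.

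miR-1927, miR-504-3p and miR-3070b-3p did not separate DP from DN. Their DN 3 intensities of 26.6, 35.1 and 28.4 compare with 29.4 to 35.3, 34.5 to 41.7 and 40.3 to 41.0 over the DP arrays. After scaling, DN 3 lay above the lowest DP array by 0.48 for miR-1927, 0.77 for miR-504-3p and 0.21 for miR-3070b-3p on the log2 scale, although no DN array was above background for any of them. DN 3 was even the highest primary array for miR-504-3p (-5.27, against -6.03 to -5.37 in DP) and for miR-1927 (-5.67, against -6.15 to -5.70 in DP). For miR-504-3p, LS 1 (-6.02) also slightly passed the lowest DP array (-6.03). The lower bounds on their DP excess over DN were 1.73-fold, 1.88-fold and 2.03-fold in the order above, and they moved with single arrays. Without DN 2 they were 1.39-fold, 1.44-fold and 1.60-fold, and without DN 3 they were 2.46-fold, 2.92-fold and 2.87-fold. M295 gave 72.0, 80.5 and 63.0 units.

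**Figure D1:**
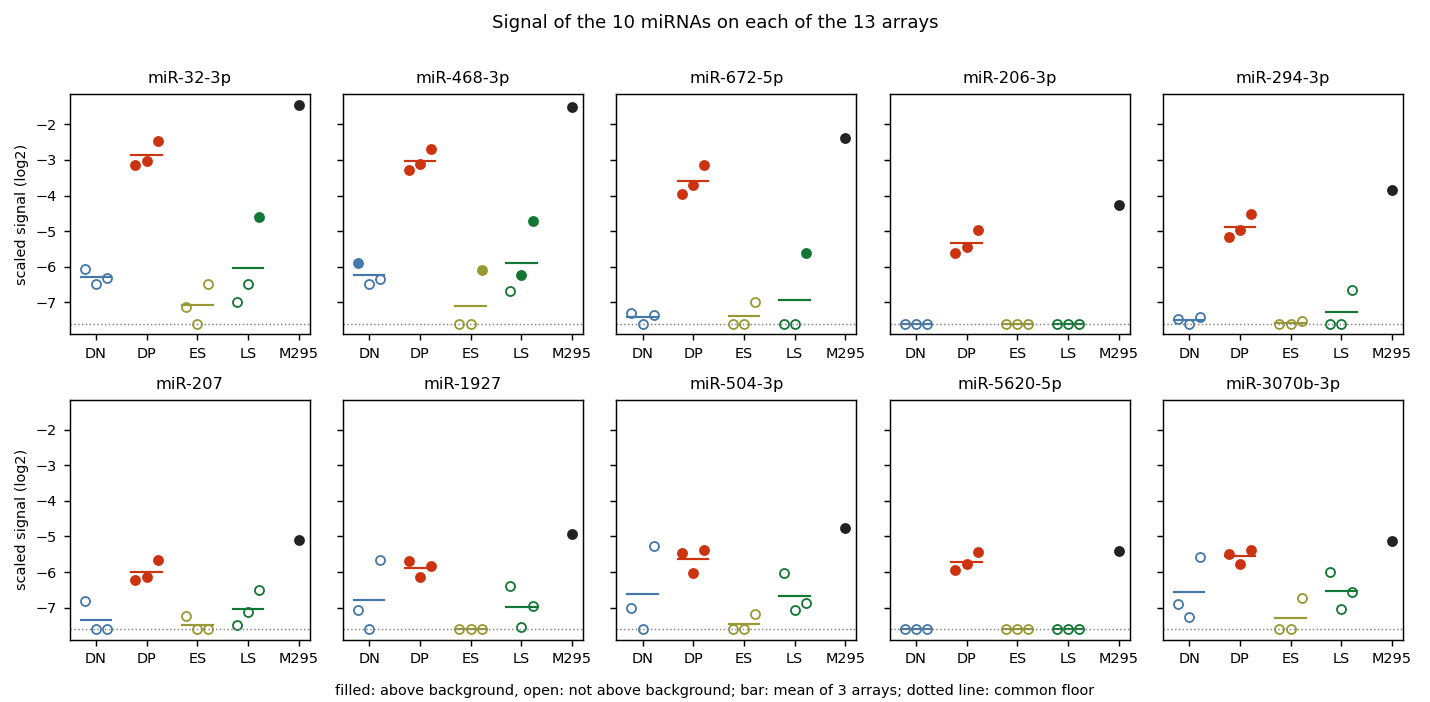
Scaled signal (log2) of each of the 10 miRNAs on the 13 arrays, 1 panel per miRNA, with filled points above background, open points not above it, bars at the mean of 3 arrays and a dotted line at the floor of -7.59. DP points are filled in all panels, M295 is the highest point in all panels, and 1 DN point lies above all DP points for miR-1927 and miR-504-3p and among them for miR-3070b-3p.

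In all, 7 of the 10 miRNAs had every DP array above every other primary array, beside 21.8% of the 229 tested miRNAs. A miRNA was tested if some group had it above background on each of its 3 arrays, and all 10 passed that filter through the DP arrays alone. Over all tested miRNAs, 18.8% were lower in DN than in DP, 25.3% lower in ES and 26.2% lower in LS, in the limma fit over the 12 primary arrays with Benjamini-Hochberg adjusted p under 0.05. The members were chosen on these contrasts, so no count of them is set against those shares. Without DN 3, 9 of the 10 had every DP array on top, and without ES 1 the count was 7. Within slide 1, which holds DP 1, it was 10, and within slide 2, which holds DP 2 and DP 3, it was 7. With normexp background correction, which adds an offset of 50 units before scaling, it was 3: miR-32-3p, miR-468-3p and miR-672-5p. There the DN mean was no lower than the DP mean for miR-207, miR-1927, miR-504-3p and miR-3070b-3p (differences of 0.05, 0.09, 0.04 and 0.03 on the log2 scale), and the ES mean passed the DP mean for miR-207 by 0.06.

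Each miRNA was read by 2 to 4 probes. All probes of miR-32-3p, miR-468-3p, miR-672-5p, miR-294-3p, miR-206-3p, miR-5620-5p and miR-207 placed the DP arrays on top, as did 1 of 3 for miR-3070b-3p, 0 of 2 for miR-1927 and 0 of 2 for miR-504-3p. For miR-468-3p the DP excess over the mean of DN, ES and LS ran from 3.28 to 3.47 (log2) over its 4 probes. The probes of miR-5620-5p differed most, with excesses of 1.46 and 2.19. Among the DP arrays, DP 3 had the highest scaled signal for 9 of the 10 miRNAs, and DP 1 had it for miR-1927. DP 3 was divided by the smallest value in the scaling (1678, against 1834 on DP 1 and 2260 on DP 2). Before scaling, the order differed for some, miR-5620-5p among them.

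M295 does not follow the other T-ALL samples: all 10 miRNAs were above background in this line, and all 10 exceeded every DP array. The choice of members did not use an M295 threshold. M295 passed every DP array for 47.2% of the tested miRNAs and every primary array for 22.3%. The excess of M295 over the DP mean was 1.51 for miR-468-3p, 1.41 for miR-32-3p, 1.22 for miR-672-5p, 1.09 for miR-206-3p and 1.03 for miR-294-3p (log2). It was 0.97 for miR-1927, 0.90 for miR-207, 0.86 for miR-504-3p, 0.43 for miR-3070b-3p and 0.32 for miR-5620-5p. M295 was on the same slide as DP 1. By rank, the name "DP-restricted" thus fits 7 of the 10 among the primary cells, and none of the 10 once the cell line is included. Of those 7, miR-32-3p, miR-468-3p and miR-672-5p were also above background on primary arrays outside DP.

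The M295 result has no replicate, and it moved with the scaling. miR-32-3p, miR-468-3p, miR-672-5p and miR-294-3p stayed above every DP array under all 7 normalizations, while the count over the 10 was 7 with normexp, 6 with the percentile taken over all mouse miRNAs, 4 with quantile normalization and 4 in the value table the authors deposited. Over the tested miRNAs the median of M295 minus DP was 0.00 in the main scaling, -0.49 with the percentile over all miRNAs, -0.29 with quantile normalization and -0.32 in the authors' deposited table. Against those shifts the median over the 10 miRNAs was 1.00, 0.37, 0.31 and 0.16.

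Of the 50 tested miRNAs with every DP array above every other primary array, 24 also had M295 above every DP array, and M295 alone passed every DP array for 47.2% of all tested miRNAs. Among those 50, M295 was above DP for 7 of 7 members, 11 of 11 names of the left-out families and 6 of 32 others. The 6 others were miR-16-1-3p, miR-574-5p, miR-670-5p, miR-877-3p, miR-1187 and miR-3082-5p. miR-670-5p (DP -5.94, M295 -4.92) and miR-16-1-3p (DP -6.30, M295 -5.04) were at the floor on all DN, ES and LS arrays, as miR-206-3p and miR-5620-5p were, but are not members. The DP thymocyte marker miR-181a-5p had the DP excess and the reverse on M295.

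**Figure D2:**
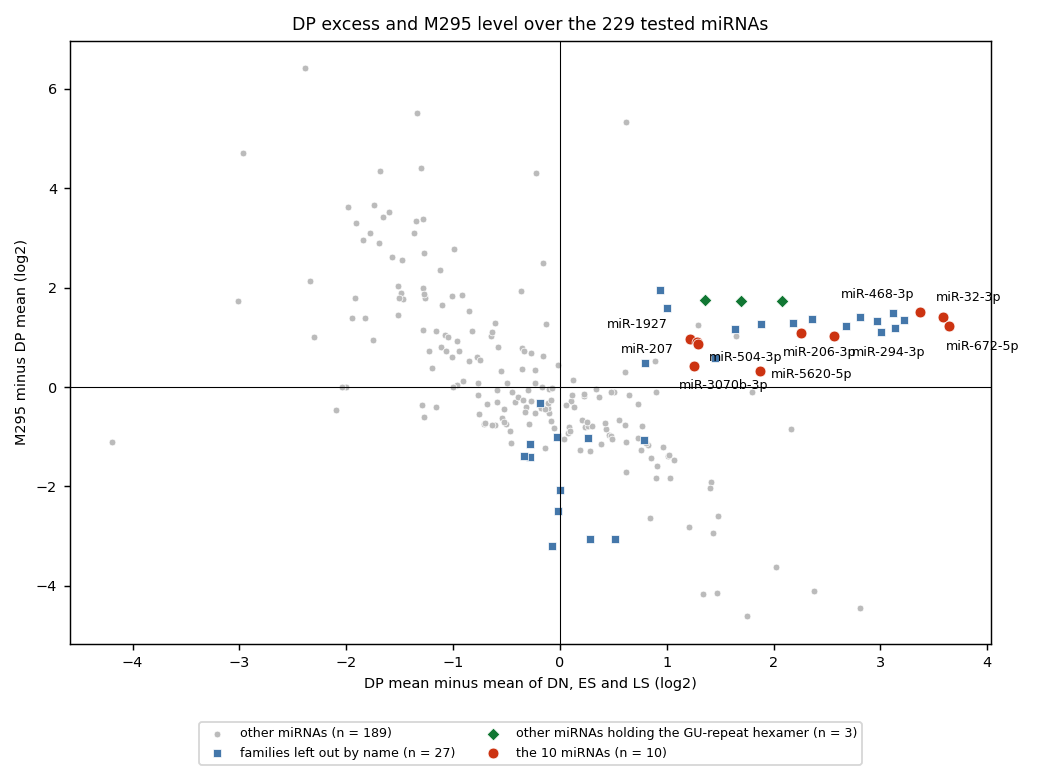
For the 229 tested miRNAs, the DP mean minus the mean of DN, ES and LS (horizontal, log2) against M295 minus the DP mean (vertical, log2), so the DP mean enters both axes. The 10 miRNAs (red) lie right of 0 and above 0, among part of the left-out families (blue) and the 3 other miRNAs holding GUGUGU (green), whereas most other miRNAs with a DP excess lie below 0.

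The opposite arms of the same hairpins did not share the signal. Of the 7 opposite arms on the array, 6 were above background on no primary array, and none was above background in DP or on M295. miR-32-5p, the better known arm of miR-32, was at the floor on all 3 DP arrays and above background on 1 DN and 1 LS array, with a mean scaled signal of -7.05 ± 0.18 in DN (SD, n = 3) and -7.15 on M295. miR-468-5p, miR-672-3p, miR-294-5p and miR-504-5p were at the floor on all 13 arrays. No opposite arm passed the filter, so none was tested. Probes differ in brightness, so levels of 2 arms are not set against each other, only whether each was detected.

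Hairpin neighbours were likewise missing. Of 16 names from the miR-290 to miR-295 cluster (miR-294 itself aside), the miR-133b hairpin beside miR-206 and miR-3070a, 14 were above background on no primary array and none on a DP array. The exceptions were miR-290-5p, above background on 1 ES array, 1 LS array and M295, and miR-295-5p, on 2 LS arrays. The 6 muscle miRNAs listed as markers (miR-1a, miR-133a, miR-133b, miR-208a, miR-208b and miR-499) were at the floor on all 13 arrays. Of 19 listed pluripotent cell miRNAs, miR-294-3p alone was above background on all 3 DP arrays.

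Among the array names with a sequence, miR-294-3p shares its seed with 4 others, and the sequences of 2 cluster neighbours show where they part.
miR-294-3p: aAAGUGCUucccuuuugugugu
miR-291a-3p: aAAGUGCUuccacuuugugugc
miR-295-3p: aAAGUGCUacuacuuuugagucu
miR-291a-3p, miR-295-3p, miR-302b-3p and miR-302d-3p were above background on no array. Each was at the floor in all 4 primary groups, with -7.42 for miR-291a-3p on M295. miR-377-5p, which has the seed of miR-672-5p, was at the floor on all arrays. These 5 are the miRNAs with a member's seed among the 882 names with a sequence, and 3 of the 10 members have no mature sequence here. Array names without a sequence, miR-1a-3p and miR-302a-3p among them, could not be searched, so further seed relatives may be on the array.

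Several of the 10 share a repeat of G and U outside the seed, or overlapping its last base in miR-32-3p. The hexamer GUGUGU, chosen after the sequences had been seen and searched in the mature strand as written, is in 4 of the 7 member sequences, here with it in capitals.
miR-32-3p: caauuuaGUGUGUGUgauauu
miR-672-5p: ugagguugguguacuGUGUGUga
miR-206-3p: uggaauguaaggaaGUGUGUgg
miR-294-3p: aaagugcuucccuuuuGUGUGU
It covers bases 8 to 15 of 21 in miR-32-3p, 16 to 21 of 23 in miR-672-5p, 15 to 20 of 22 in miR-206-3p and 17 to 22 of 22 in miR-294-3p. miR-207, miR-5620-5p and miR-3070b-3p do not hold it, and these are among the members near background in DP. For miR-468-3p only the hairpin of 78 bases was in the table, and it holds the hexamer at bases 67 to 72, on its 3′ side.
Mir468 hairpin: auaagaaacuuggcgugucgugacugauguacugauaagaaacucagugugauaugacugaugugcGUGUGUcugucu
The hairpins of miR-1927 and miR-504 do not hold it.

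Among the names with a sequence the hexamer is rare. It is in 13 (1.47%) of the 882 mouse miRNAs with a sequence and in 9 (5.49%) of the 164 tested ones. Of the 61 names of the left-out families only 7 have a sequence. Of these, 3 hold the hexamer, against 6 of 868 (0.69%) names outside the members and those families. Its share over the whole array is therefore not known. All 9 tested holders had every DP array above every other primary array and M295 above every DP array, against 5 of the 155 tested miRNAs without it. The 4 members among the 9, and 2 members among the 5, were chosen for their DP level, so this contrast is no test. Outside the members both patterns were in 2 of 2 holders of the left-out families and 3 of 3 other holders. Without the hexamer they were in 0 of 3 and 3 of 149. These counts are no test either, since miR-466j, like the members, passed the filter through the DP arrays alone. Its place on top in DP was thus favoured by the filter. The holders outside the members were miR-466j and miR-669n of the left-out families and 3 more, shown for the repeat they hold.
miR-574-5p: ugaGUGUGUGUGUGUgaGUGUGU
miR-1187: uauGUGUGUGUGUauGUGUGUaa
miR-3082-5p: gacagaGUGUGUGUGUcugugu
These 3 were above background on all 12 primary arrays. The mean scaled signal of miR-574-5p was -2.60 in DN, -0.93 in DP, -2.37 and -1.88 in ES and LS, and 0.82 on M295. miR-1187 had -3.58, -1.71, -3.66, -2.98 and 0.03 in the same order, and miR-3082-5p had -3.41, -1.30, -3.83, -2.89 and 0.43. Their DP excess over the mean of the other groups was 1.35, 1.70 and 2.08.

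Of the 4 holders that were not tested, miR-539-5p was above background on 2 DP arrays and M295, miR-3097-5p on M295 alone, and miR-1197-5p and miR-466k were at the floor on all arrays. The overlapping hexamer UGUGUG without GUGUGU is in 5 further miRNAs, of which let-7b-5p alone was tested, and it had neither DP above the other groups nor M295 above DP. The part of the repeat in the shared signal was not tested.

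Pearson's r over the 12 primary arrays, with the mean of the 10 members, describes which miRNAs had the most similar pattern. The 10 most similar outside the members were miR-466h-5p (r = 0.983), miR-669e-5p (0.974), miR-466j (0.974), miR-669k-5p (0.973), miR-669o-5p (0.972), miR-466m-5p (0.961), miR-669f-5p (0.958), miR-16-1-3p (0.944), miR-670-5p (0.940) and miR-669n (0.936). Of these, 8 belong to the left-out families. The arrays share scaling and floor, and the pattern rests mainly on the DP arrays. Within the members, r with the mean of the other 9 was 0.976 for miR-294-3p and 0.968 for miR-32-3p, and lowest for miR-504-3p (0.734), miR-1927 (0.767) and miR-3070b-3p (0.806), which were raised on DN 3.

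Comparisons among DN, ES and LS did not enter the choice through the DP arrays, although all members were picked to be low there. None of the 10 was called in ES against DN (background 6.55% of tested miRNAs in either direction), in LS against DN (background 33.2%) or in LS against ES (background 2.62%), by limma with Benjamini-Hochberg adjustment over the 229. At an unadjusted p under 0.05 there were 0, 0 and 1. At most 3 of the 10 were above background on any DN, ES or LS array, so the choice of low members left little signal in which a difference could be seen. The median difference of the 10 was -0.44, 0.12 and 0.54 on the log2 scale, against -0.04, 0.16 and 0.28 over all tested miRNAs.

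The single one was miR-468-3p, with LS above ES by 1.21 (log2, 95% interval 0.03 to 2.38, adjusted p = 0.324 by limma). Without ES 3 the difference was 1.71 and was called (adjusted p = 0.0362 by limma). At that setting 55 of the 229 tested miRNAs were called, against 6 with all arrays. miR-32-3p was 1.04 higher in LS than in ES, with an interval of -0.15 to 2.22. The intervals in LS against ES reached 2.38 and those in ES against DN reached -2.03 for miR-468-3p. True differences up to that size among the low groups were thus not excluded. miR-206-3p and miR-5620-5p were at the floor in all 3 groups and have no order.

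LS 3 stood out in T-ALL for part of the members. It was the highest of the 6 T-ALL arrays for miR-32-3p (-4.61), miR-468-3p (-4.71), miR-672-5p (-5.62), miR-294-3p (-6.66) and miR-207 (-6.51). On LS 3, 3 of the members were above background, against 0 or 1 on the other T-ALL arrays. LS 1 was the highest for miR-1927 (-6.40), miR-504-3p (-6.02) and miR-3070b-3p (-6.01). miR-206-3p and miR-5620-5p were at the floor on all 6. Within slide 2, where LS 3 is the only LS array and ES 3 the only ES array, assumed to vary like the other groups, 5 members were called higher in LS than in DN (background 37.6% of tested miRNAs higher in LS) and 4 higher in LS than in ES (background 25.3%), the latter 1 array against 1. Within slide 1, which holds LS 1 and LS 2, none was called in these comparisons.

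**Figure D3:**
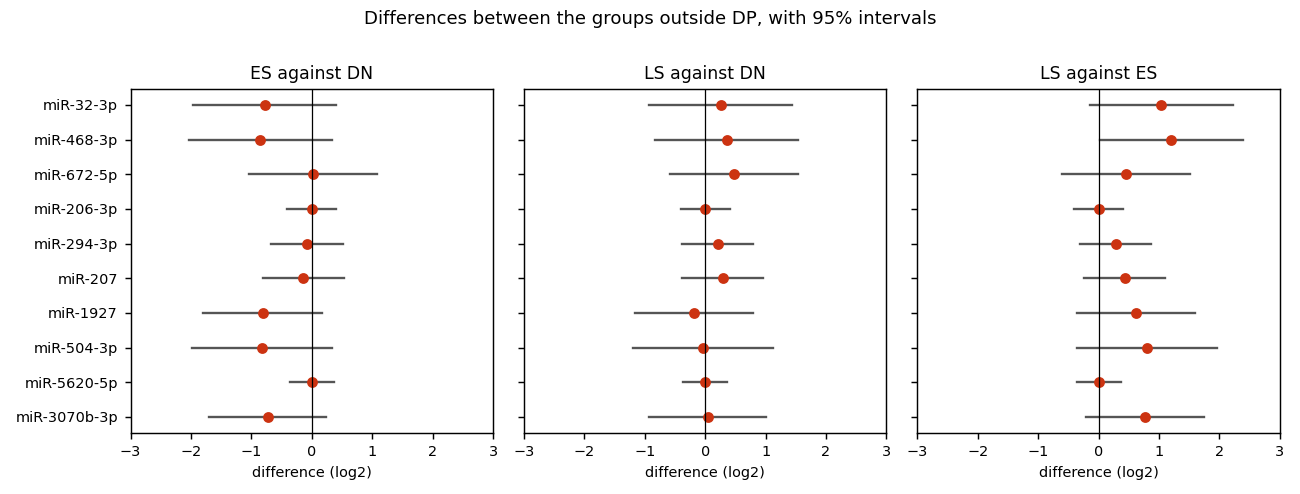
Differences in scaled signal (log2) of the 10 miRNAs between the groups other than DP, as points with 95% intervals from limma over 3 arrays per group. The spread was shared over all groups, DP included. miR-206-3p and miR-5620-5p were at the floor in DN, ES and LS, so their narrow intervals around 0 measure no difference between these groups. The interval spans 0 in all but miR-468-3p in LS against ES, where it runs from 0.03 to 2.38.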

How the data were processed

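Per the file headers, the scanner software was Agilent Feature Extraction 10.7.3.1, and the deposited files of each array give a background-subtracted intensity per spot, not scaled between arrays. The authors' deposited value table is on the log2 scale. Each column orders the miRNAs like that array's total intensity, and all have the same median of 3.29, as after quantile normalization. It served as an alternative. Tools named in the submitters' processing notes are affy, RMA, GCOS and MAS5, with no role given.

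Control spots and outlier spots (4.03 to 8.60% per array) were removed, spots averaged per probe and probes per miRNA, arrays scaled and floored, and log2 taken. A miRNA was above background where at least 50% of the kept spots of 1 of its probes carried the scanner software's mark. The 12 primary arrays were fitted in limma 3.58.1 (R 4.3.3, with the data.table package in version 1.17.8) with lmFit and eBayes, 1 mean per group, and p adjusted by Benjamini-Hochberg (threshold 0.05). M295 was left out of the fit. Slides were read from the file headers, and each primary group spans both. The fit was tested on simulated data for DN against DP only, with an equal spread in all groups and no floor. That test does not bear on members at or near the floor. The number of arrays limits the precision.

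The members, marker lists and comparisons were chosen with earlier results of these data known. The named miRNAs are all members, their opposite arms, hairpin neighbours and markers, and the 10 most similar. Others (the holders of GUGUGU, miRNAs of a shared seed and the 6 with the joint DP and M295 pattern) were named after their values were seen. Normexp used the median spot signal, as the files hold no mean. Sequences and coordinates are RefSeq's (881 array names matched, and miR-3070b-3p through its hairpin).

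Replicate numbers are shared by the groups, and the deviations from the group means correlated over 0.1 in 6 of 18 same-number pairs (range -0.34 to 0.50). All 3 pairs of DP and LS did (0.18 to 0.50), and no other 2 groups had all 3. The pairs of DN and DP had -0.01, 0.46 and 0.23. Arrays of unlike number were not correlated, so whether the numbers pair the samples was not tested.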

Additional observations from a re-analysis of the deposited data

How the results depend on the processing

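Of the 10 miRNAs, 0 were called in ES against DN under any alternative. In LS against DN and LS against ES, 5 and 4 were called within slide 2 alone, where 118 and 114 of all 229 tested miRNAs were called in either direction, and in LS against ES the count without 1 array ran from 0 to 1 (1 without ES 3). The members below every DP array on M295 numbered 0, against 1 with the percentile over all mouse miRNAs, 1 with quantile normalization and 2 in the authors' table. With a filter of 1 array above background, 1 opposite arm or hairpin neighbour was called against DP. The count of members with all DP arrays on top, added after the data were seen, was 3 with normexp and 6 to 10 otherwise.

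The background counts moved more. DN against DP had 67 calls, against 43 with normexp, 43 with a small floor, 18 within slide 1, 123 within slide 2 and 164 with only the groups compared, and 44 (without DP 3) to 101 (without ES 3). ES against DP had 106, against 29 and 165 within slides 1 and 2 and 62 with only the groups compared, and 70 (without DP 3) to 120 without 1 array. LS against DP had 134, against 56 within slide 1. ES against DN had 15, against 0 with normexp, 42 with the percentile over all miRNAs, 32 with quantile normalization, 5 with a small floor, 1 with no filter, 9 with a slide block, 3 and 137 within slides 1 and 2 and 3 with only the groups compared, and 0 (without any 1 DN array) to 39 (without ES 2), moving by over 1.5 times without any 1 DN, DP or ES array. LS against DN had 76, against 46 with normexp, 21 with no filter and 3 and 118 within slides 1 and 2, and 33 (without LS 1) to 117 (without ES 3), with 40 to 43 without any 1 DN array. LS against ES had 6, against 2 with quantile normalization, 0 with no filter, 3 with a slide block, 0 and 114 within slides 1 and 2 and 0 with only the groups compared, and 1 (without LS 1) to 55 (without ES 3), moving by over 1.5 times without any 1 array but LS 2. The cause of these changes was not tested.

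With replicate number as a replicate block, ES against DN had 6 calls and LS against ES had 3. LS against DP, whose same-number arrays all correlated over 0.1, had 135 against 134. The members' 0 calls in the comparisons without DP were the same. The 5 dimmest miRNAs had signals of 25 to 42 units in DP. The spread of negative controls was 5 to 7 units, and 19.0 on ES 1, which limits what can be said of these miRNAs.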
